A study of Pseudotsuga menziesii with 75 samples.

Results

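The NBS-LRR contigs of the Douglas-fir (Pseudotsuga menziesii) needle transcriptome are those whose deposited description contains tir-nbs, tir nbs, nbs-lrr or nbs lrr. There were 102 among 59189 contigs (0.172%). By their descriptions 62 were of the TIR class, 23 were BED finger receptors, 12 were of the CC class and 5 named no class. The names rest on the descriptions alone, since sequences and protein domains were not analysed here. An Arabidopsis locus stood beside 31 of them (30.4%, against 57.9% of all contigs). These were 13 loci, led by AT1G69550 (8 contigs) and AT3G04220 (5 contigs). The same locus could stand beside different classes, as AT3G25510 did for TIR and CC contigs and AT5G43730 for BED finger and CC contigs.

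NBS-LRR proteins, also called NLRs, are receptors inside plant cells. They bind pathogen molecules, or sense what these molecules do to host proteins, and then start a local defence that often ends in death of the infected cell. Their N-terminal part sets the class: a TIR (Toll and interleukin receptor) domain, a CC (coiled coil) domain or, in some plants, an added BED zinc finger. In Arabidopsis, TIR receptors signal through EDS1 with PAD4 or SAG101 and through the helper receptors of the ADR1 and NRG1 families, and RAR1, SGT1 and HSP90 keep many receptors folded. NLR genes are known for large families, tandem copies and differences in gene content between individuals of a species, and conifers carry many genes of the TIR class.

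RNA of needles from adult trees was sequenced. The needles had formed in the year before the sampling year 2010 and came from the sun-exposed southern canopy. The trees were of the provenances Salmon Arm (interior British Columbia) and Cameron Lake (coastal British Columbia) and grew in Germany at Wiesloch (lowland) or Schluchsee (mountain). Salmon Arm had 7 trees at Wiesloch and 6 at Schluchsee, and Cameron Lake had 5 and 7. The labels name no treatment. The 75 libraries of these 25 trees fall into 16 groups of 4 to 5 by provenance, site and month (May, June, July and September). Needles were cut at Wiesloch on 12 May and at Schluchsee on 27 May, then on 16 and 30 June, 14 and 28 July, and 8 and 15 September in the same order, so site and sampling day cannot be told apart. Replicates are separate trees, sampled up to 4 times each.

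Total counts per library were 18.5 to 47.5 M (mega), with a median of 34.1 M. No count is 0. The most frequent low value of a library, of unstated origin, was 2 counts in 72 libraries and 4 counts in the other 3. Some counts lie below it. The 3 libraries with 4 counts were all of Salmon Arm, 1 of July at Wiesloch and 2 of September at Schluchsee. Mesophyll markers were abundant (LHCB4.2 at 2790 CPM, RCA at 3660 CPM and RBCS1A at 2530 CPM). The xylem marker CESA4 was at 0.305 CPM, CESA7 at 10.8 CPM and the guard cell marker FAMA at 13.8 CPM, and no contig matched CYCB1;1 or MYB60. CPM are counts per M counts of a library after TMM scaling, and levels per tree use the summed counts of its libraries. They are not divided by transcript length, so levels of different contigs are not ranked as transcript numbers.

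Most NBS-LRR contigs were low. Their mean over the 25 trees had a median of 1.11 CPM, against 2.85 CPM for all other contigs, with 46 under 1 CPM, 55 at 1 to 10 CPM and 1 above. The class medians were close together, at 1.2 CPM for TIR, 1.04 CPM for BED finger and 0.906 CPM for CC contigs. The highest was isotig02858, a TIR contig, at 33.7 CPM, which held 17.9% of the summed level of the 102 contigs. Next came the TIR contigs GAEK01033400.1 (9.05 CPM), isotig06680 (7.91 CPM), isotig06682 (7.86 CPM), GAEK01026225.1 (6.29 CPM) and GAEK01004044.1 (4.28 CPM). The 4 lowest were isotig21196, a TIR contig at 0.201 CPM, and the CC contigs isotig53189 (0.181 CPM), isotig89884 (0.179 CPM) and isotig94548 (0.175 CPM). Each of these 4 reached 1 CPM in 1 tree and was near-absent in 15 to 20 of the others.

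Here a contig is called near-absent in a library when its count is at most 2 times the most frequent low value of that library, and near-absent in a tree when this holds in every library of the tree. Adjusted p-values are from the quasi-likelihood test of edgeR with adjustment by Benjamini-Hochberg across every contig tested, at a threshold of 0.05. Provenance and site were compared over the summed counts of the 25 trees, and months over the 75 libraries. The main month tests hold no term for the tree, so repeated libraries of a tree count as independent in them. Counts with the tree as a replicate block are given below. Near-identical contigs can share reads, so values of single contigs are uncertain. In whole needles, fewer cells of a type and less RNA per cell cannot be told apart.

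NBS-LRR contigs varied widely between single trees of the same provenance and site. The difference between such trees passed for 92 of 102 contigs, where 69.9% of all contigs passed (F test with 21 and 38 degrees of freedom, chosen after the data were seen). All 23 BED finger, all 12 CC and all 5 unspecified contigs passed, and 52 of 62 TIR contigs. The median SD between trees of 1 provenance and site was 0.68 on the log2 scale (CPM plus 0.25), against 0.38 for all other contigs. Kindred groups had a like spread, which was 0.67 for 231 other contigs described as disease resistance and 0.68 for 1380 receptor kinase contigs, and 88.7% and 89.4% of these passed the tree comparison. For 42 WRKY transcription factor contigs it was 0.43.

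**Figure D1:**
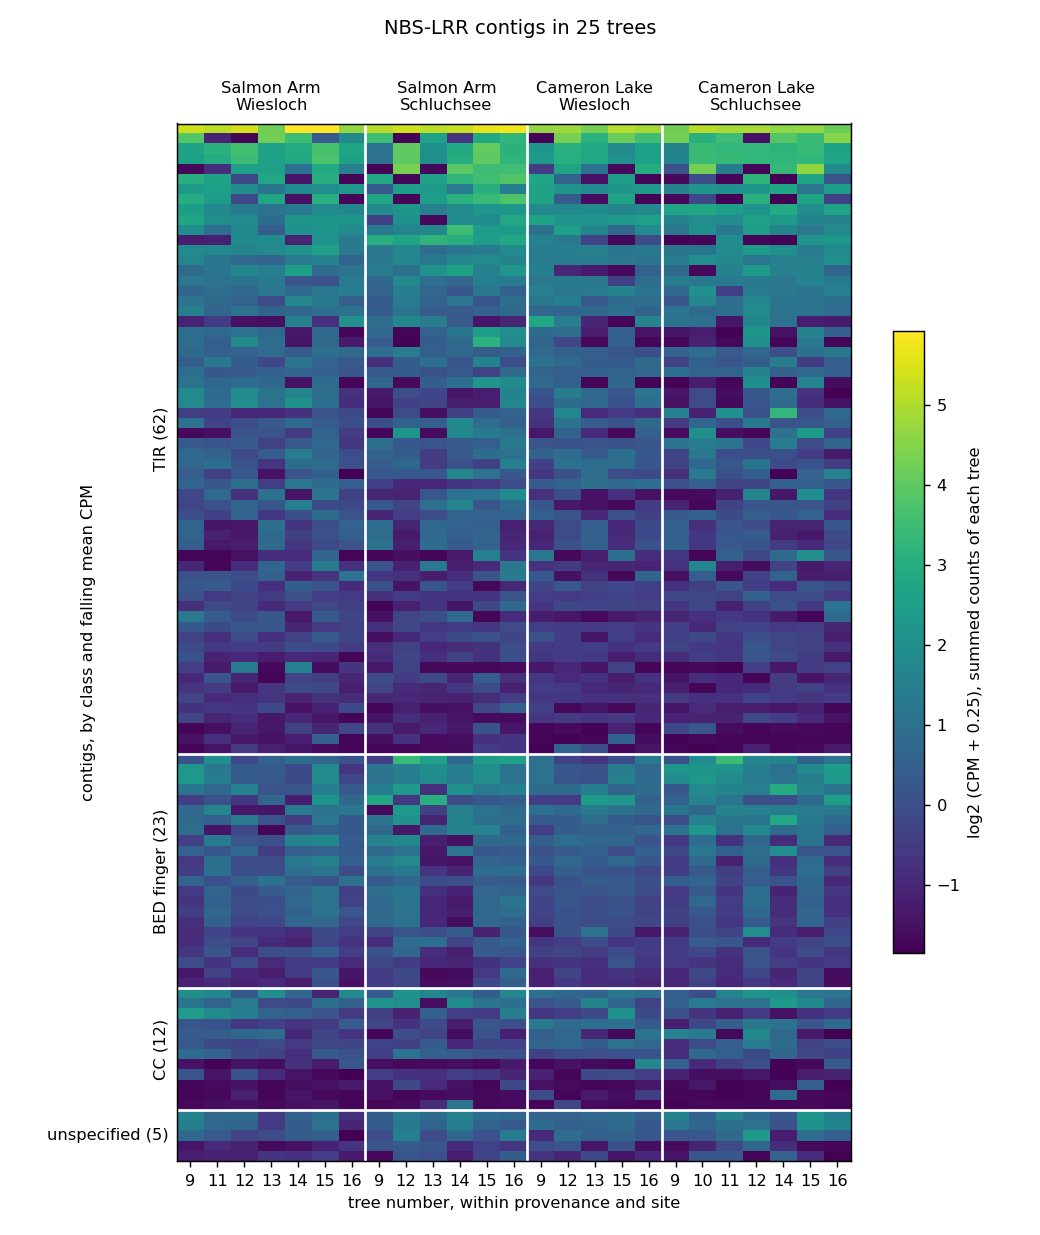
Level of each NBS-LRR contig (rows, by class and falling mean) in each of the 25 trees (columns, by provenance and site), as log2 of CPM plus 0.25 from the summed counts of a tree. Dark cells within otherwise bright rows are trees in which a contig was near-absent; they lie in all 4 blocks, with 1 to 18 near-absent contigs per tree.

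A part of this spread was near-absence. Of the 102 contigs, 45 (44.1%) were near-absent in at least 1 tree and at 1 CPM or more in another, against 14.5% of all contigs, 19.5% of the other disease resistance contigs and 23.3% of the receptor kinase contigs. The classes had 29 of 62 TIR, 7 of 23 BED finger, 6 of 12 CC and 3 of 5 unspecified contigs of this kind. Low contigs meet the criterion more easily, and the NBS-LRR contigs are low, so shares were also taken by level. At a mean of 0.3 to 1 CPM the share was 44.7% of 38 NBS-LRR contigs and 34.4% of all other contigs. At that level it was 43.9% of other disease resistance contigs and 47.5% of receptor kinase contigs. At 1 to 3 CPM it was 36.4% of 44 NBS-LRR contigs and 13.3% of all other contigs. Other disease resistance contigs had 20% there and receptor kinase contigs 27.8%. At 3 to 10 CPM it was 54.5% of 11 contigs against 4.5% of the others, 7.55% of other disease resistance contigs and 12.4% of receptor kinase contigs. Under 0.3 CPM, with 8 NBS-LRR contigs, it was 75% against 56.4%.

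**Figure D2:**
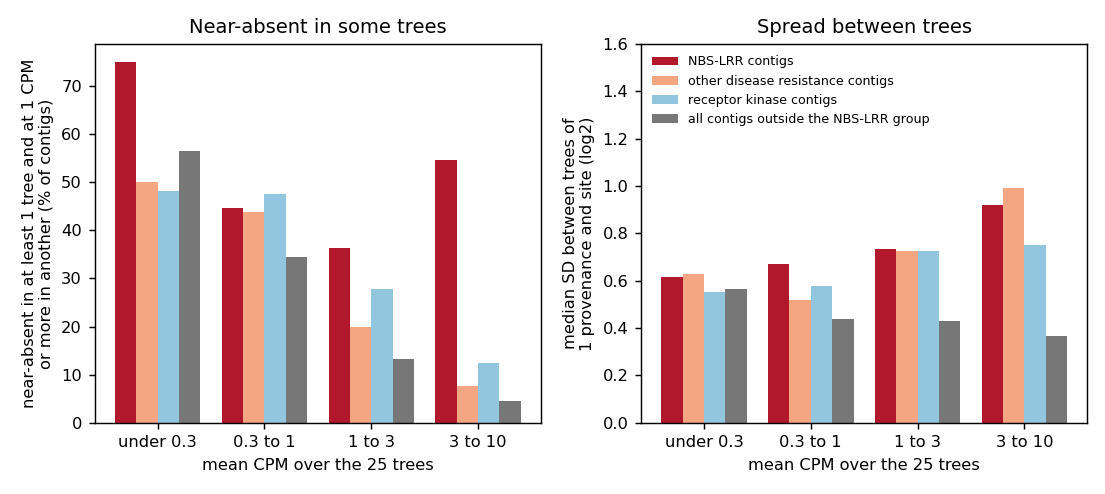
Share of contigs near-absent in at least 1 tree and at 1 CPM or more in another (left) and median SD between trees of 1 provenance and site on the log2 scale (right), by mean CPM and group of contigs. At 3 to 10 CPM the NBS-LRR share is 54.5% of 11 contigs and that of all other contigs is 4.5%.

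GAEK01033400.1, a TIR contig described as partial, had the highest spread, with an SD of 2.31. In the Salmon Arm trees its lowest, median and highest levels were 0.0432, 5.74 and 18.6 CPM, and in the Cameron Lake trees 0.0503, 11.1 and 22.6 CPM. Of the 25 trees 4 were near-absent and 19 reached 1 CPM, and each provenance held trees of both kinds. The near-absent trees were Salmon Arm tree 12 at Wiesloch (0.057 CPM), Salmon Arm tree 12 at Schluchsee (0.0432 CPM), Cameron Lake tree 9 at Wiesloch (0.0503 CPM) and Cameron Lake tree 12 at Schluchsee (0.112 CPM). The provenance difference did not pass (log2 0.91, SE 0.91, adjusted p = 0.55).

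GAEK01026225.1, another TIR contig, ran from 0.0563 over 5.40 to 19.8 CPM (lowest, median, highest) in Salmon Arm and from 0.0562 over 2.89 to 24.5 CPM in Cameron Lake. It was near-absent in 5 trees and at 1 CPM or more in 17. At Schluchsee its median was 9.85 CPM and at Wiesloch 2.22 CPM, but the site ranges overlapped and the site difference did not pass (log2 1.64, SE 0.92, adjusted p = 0.24).

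GAEK01004044.1 was near-absent in 7 trees and at 1 CPM or more in 14. Its lowest, median and highest levels were 0.0541, 6.69 and 13.7 CPM in Salmon Arm and 0.0286, 0.814 and 8.96 CPM in Cameron Lake. The medians differ and the ranges overlap, and the provenance difference of -1.72 on the log2 scale (SE 1.09) did not pass (adjusted p = 0.32). Its spread of 2.12 between trees was shared by GAEK01004045.1, GAEK01004046.1, GAEK01004047.1 and isotig62910, whose levels over the 25 trees correlated at Pearson r of 0.863 to 0.999 with one another, as a description over trees that share these libraries.

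Such groups of contigs with like levels were common. Joined at r of 0.9 or more (log2 scale, n = 25 trees), 35 of the 102 contigs fell into 12 groups and 67 stood alone. The largest group held 8 BED finger contigs (GAEK01003013.1, GAEK01003014.1, GAEK01003019.1, GAEK01003024.1, GAEK01003025.1, GAEK01003030.1, GAEK01003032.1 and GAEK01003045.1) at r of 0.853 to 0.986. The TIR contigs isotig06680 and isotig06682, both beside AT1G69550, were joined at r = 0.992, and their levels in each tree were near equal (8.93 and 9.35 CPM as medians at Schluchsee). Only 1 group joined different classes, the BED finger contigs GAEK01003552.1 and GAEK01003553.1 with the CC contig GAEK01025777.1. Contigs of a group may be copies or parts of 1 transcript, which was not tested, so the 102 contigs are not 102 independent genes.

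Few pairs of contig and tree went between near-absence and 1 CPM over the season, and most lay between these limits in at least part of it. Over the 45 contigs with near-absent trees and the 22 trees with at least 2 libraries there are 990 pairs of contig and tree. In 195 pairs (19.7%) the contig was near-absent in every library of the tree, and in 221 (22.3%) it was at 1 CPM or more in every library. The contigs were picked for near-absence in all libraries of at least 1 tree, so a part of the 195 pairs was fixed by that choice. Other contigs were not counted in this way. In 19 pairs (1.92%) the same tree had a near-absent library and a library at 1 CPM or more, and 555 pairs (56.1%) lay between. For GAEK01033400.1 these counts were 3 trees near-absent throughout, 16 at 1 CPM or more throughout and 1 with both. For GAEK01026225.1, the contig with most such trees, they were 4, 13 and 3.

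Each tree had its own set. The number of near-absent NBS-LRR contigs per tree was 1 to 18 (median 10), and the number at 1 CPM or more was 34 to 66 (median 45). Salmon Arm tree 12 at Wiesloch, with 4 libraries, had 1 near-absent contig and Salmon Arm tree 14 at Wiesloch, with 2 libraries, had 18. Trees with fewer libraries meet the criterion more easily, and the 3 trees with 1 library had 12, 15 and 16. By provenance the ranges were 1 to 18 in Salmon Arm (median 9) and 6 to 16 in Cameron Lake (median 11.5), which overlap. Of the 45 contigs 27 had near-absent trees in both provenances, 7 in Cameron Lake only and 11 in Salmon Arm only.

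No NBS-LRR contig was near-absent in a whole provenance. The criterion, near-absence in every tree of 1 provenance with 1 CPM or more in at least 5 trees of the other, was met by 0 of 102 contigs, against 41 of all contigs (0.0693%), so a count of 0 is near this background. It was also 0 at each other limit tried.

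Few NBS-LRR contigs differed between provenances. Over all months 3 of 101 tested (2.97%) passed, 1 higher in Cameron Lake and 2 lower, against 10.6% of all contigs, 5.63% of other disease resistance contigs and 11.0% of receptor kinase contigs. At an unadjusted p under 0.05 it was 10.9% of the NBS-LRR contigs and 27.6% of all others. The median size of the difference on the log2 scale was 0.34 in NBS-LRR contigs and 0.23 in all other contigs, with a median SE of 0.38 against 0.18. A difference of at least 1 in size was seen in 15.8% of the NBS-LRR contigs and 8.87% of the others, and of these 16 NBS-LRR contigs 2 passed.

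isotig02858, the highest NBS-LRR contig, had its lowest, median and highest level at 18.8, 39.7 and 60.4 CPM in the 13 Salmon Arm trees and at 17.7, 26.3 and 33.9 CPM in the 12 Cameron Lake trees. All 12 Cameron Lake trees lay below the Salmon Arm median, though the ranges overlap. The means were 40.7 ± 12.3 CPM (SD, n = 13) and 26.2 ± 5.46 CPM (n = 12), and the log2 difference was -0.66 (SE 0.14, adjusted p = 0.0068). It was -0.63 at Wiesloch (adjusted p = 0.22) and -0.69 at Schluchsee (adjusted p = 0.10), and the call was kept whichever tree was left out. In the libraries of single months it was -0.48 to -0.73, and passed in June alone (adjusted p = 0.045). It was also 1 of the 10 NBS-LRR contigs whose trees of 1 provenance and site did not differ past the threshold (adjusted p = 0.16).

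isotig50845, a TIR contig, had levels of 0.584, 0.928 and 2.85 CPM (lowest, median, highest) in Salmon Arm and 0.0582, 0.501 and 0.919 CPM in Cameron Lake. Every Cameron Lake tree was below the Salmon Arm median and 2 trees were near-absent, and the ranges overlap. The log2 difference was -1.59 (SE 0.47, adjusted p = 0.036). Leaving out any of 8 trees ended the call (adjusted p up to 0.070): Cameron Lake tree 9 at Schluchsee and trees 12, 13 and 15 at Wiesloch, Salmon Arm tree 13 at Schluchsee and trees 12, 13 and 14 at Wiesloch. With the lowest values set to 0, adjusted p was 0.11. In single months the difference was -1.18 to -1.93 and passed in July alone (adjusted p = 0.045).

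GAEK01003528.1, a CC contig, was the one higher in Cameron Lake. Its lowest, median and highest levels were 0.167, 0.605 and 1.06 CPM in Salmon Arm and 0.168, 1.59 and 2.22 CPM in Cameron Lake, where 11 of 12 trees lay above the Salmon Arm median. The log2 difference was 1.16 (SE 0.35, adjusted p = 0.039), with 1.74 at Wiesloch (adjusted p = 0.051) and 0.31 at Schluchsee (adjusted p = 0.77). In single months it passed in none, with 1.21 in May (adjusted p = 0.052), 0.97 in June (0.26), 1.22 in July (0.079) and 0.37 in September (0.76). The call was lost without any of 11 trees (adjusted p up to 0.098), which were Cameron Lake trees 11 and 14 at Schluchsee and 9, 13 and 15 at Wiesloch, and Salmon Arm trees 12 and 13 at Schluchsee and 12, 13, 14 and 15 at Wiesloch.

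**Figure D3:**
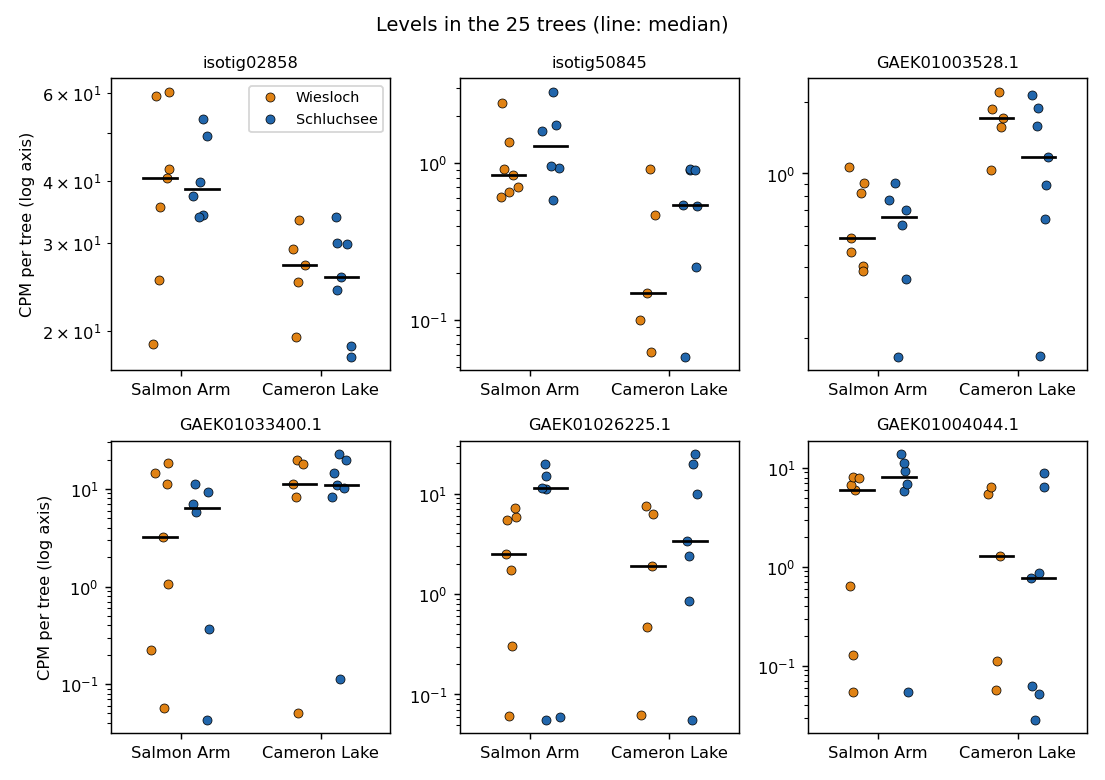
CPM per tree on a log axis for the 3 contigs that differed between provenances (top) and 3 of the 6 highest contigs, which were near-absent in some trees (bottom), by provenance and site; lines are medians of the trees. The ranges of the provenances overlap in every panel, and GAEK01033400.1 spans 0.0432 to 18.6 CPM in Salmon Arm and 0.0503 to 22.6 CPM in Cameron Lake.

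Within a site fewer contigs passed. At Wiesloch (12 trees) 0 of 101 NBS-LRR contigs passed in edgeR, 10 were under 0.05 unadjusted and 6 passed in DESeq2, against 0.14% of all contigs in edgeR and 5.51% in DESeq2. At Schluchsee (13 trees) 1 of 97 passed against 1.89% of all contigs. It was isotig74707, a CC contig lower in Cameron Lake (log2 -1.40, SE 0.31, adjusted p = 0.049), and the call was lost without any 1 of the 13 trees (adjusted p of 0.053 to 0.14). The provenance difference itself differed between sites for 0 of 101 contigs in edgeR, with 7 under 0.05 unadjusted and 1 in DESeq2, where 0% of all contigs passed in edgeR and 0.378% in DESeq2. Within single months, in fits added after the data were seen, 2 NBS-LRR contigs passed in each of May, June, July and September, against 3.68%, 1.86%, 4.59% and 1.73% of all contigs. With the tree as a replicate block in limma voom, 16 of 102 contigs passed, 5 higher and 11 lower in Cameron Lake, and all 3 named above were among them (16.5% of all contigs passed). Of the markers of needle cells, LHCB1 (log2 1.36, adjusted p = 0.020) and RCA (log2 0.30, adjusted p = 0.029), both of mesophyll, were higher in Cameron Lake and the other 7 did not pass. Their part in these differences was not tested.

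Between sites, over all months, 6 of 101 NBS-LRR contigs passed, 3 higher and 3 lower at Schluchsee, against 17% of all contigs. Among other disease resistance contigs 9.96% passed and among receptor kinase contigs 13.1%. With the tree as a replicate block in limma voom, 11 NBS-LRR contigs passed, with the 6 among them, against 16.3% of all contigs.

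The TIR contigs GAEK01011461.1 and GAEK01011462.1, joined at r = 0.986, were lower at Schluchsee. GAEK01011462.1 had levels of 0.353, 1.77 and 3.5 CPM (lowest, median, highest) in the 12 Wiesloch trees and 0.0269, 0.361 and 2.81 CPM in the 13 Schluchsee trees, 12 of which lay below the Wiesloch median. The log2 difference was -2.30 (SE 0.49, adjusted p = 0.0028), and for GAEK01011461.1 it was -2.24 (SE 0.48, adjusted p = 0.0029). The ranges overlap, and the highest Schluchsee levels were those of Salmon Arm tree 16, at 2.81 CPM of GAEK01011462.1 and 3.06 CPM of GAEK01011461.1. Both calls ended when the shares of months were left out of the fit, where the log2 differences were -1.49 (adjusted p = 0.060) and -1.46 (adjusted p = 0.067). In the libraries of June alone they were -0.95 (adjusted p = 0.42) and -0.71 (adjusted p = 0.56).

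isotig69831, a TIR contig beside AT1G69550, was at 0.485, 1.42 and 2.04 CPM at Wiesloch and 0.263, 0.590 and 1.23 CPM at Schluchsee. All 13 Schluchsee trees lay below the Wiesloch median, and the log2 difference was -1.17 (SE 0.23, adjusted p = 0.0018). It held whichever tree was left out. In single months it did not pass in May (log2 -1.11, adjusted p = 0.11) or June (log2 -0.46, adjusted p = 0.44).

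Higher at Schluchsee were the BED finger contig GAEK01021819.1 and the TIR contigs GAEK01022676.1 and GAEK01024690.1. GAEK01021819.1 was at 0.376, 1.03 and 3.67 CPM (lowest, median, highest) at Wiesloch and 0.507, 3.04 and 10.7 CPM at Schluchsee, a log2 difference of 1.64 (SE 0.53, adjusted p = 0.035). Leaving out any of 10 trees ended the call (adjusted p up to 0.10), as did leaving out the 3 libraries with a low value of 4 (adjusted p = 0.052). These trees were Cameron Lake trees 10 and 11 at Schluchsee and 12 and 15 at Wiesloch, and Salmon Arm tree 15 at Schluchsee and trees 9, 12, 13, 14 and 15 at Wiesloch. In single months its site difference did not pass in May (log2 1.18, adjusted p = 0.24), June (1.5, 0.22) or September (0.97, 0.36). GAEK01022676.1 stands beside AT3G44480, which in Arabidopsis is RPP1, a receptor for a downy mildew effector. Its levels were 0.407, 0.865 and 1.44 CPM at Wiesloch and 0.618, 1.37 and 2.39 CPM at Schluchsee (log2 0.72, SE 0.19, adjusted p = 0.013), with 10 of 13 Schluchsee trees above the Wiesloch median. In the libraries of July alone the site difference was 0.04 on the log2 scale (adjusted p = 0.94), with means of 1.04 CPM at both sites. GAEK01024690.1 was at 1.89, 3.17 and 5.38 CPM and at 2.60, 4.53 and 7.22 CPM (log2 0.56, SE 0.17, adjusted p = 0.026), with 12 of 13 above. Without any of 6 trees its adjusted p was 0.050 to 0.055, namely Cameron Lake tree 10 at Schluchsee and 12, 15 and 16 at Wiesloch, and Salmon Arm trees 12 and 14 at Wiesloch. In single months it did not pass in May (log2 0.39, adjusted p = 0.28), June (0.26, 0.56) or September (0.36, 0.40).

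The site difference changed with the month. In fits of single months, added after the data were seen, 0 of 97 NBS-LRR contigs differed between sites in May (3.02% of all contigs) and 0 of 98 in June (3.12%). In July 22 of 96 differed, 14 higher and 8 lower at Schluchsee (41.4% of all contigs), and in September 6 of 92, 1 higher and 5 lower (8.06%). Tested over all libraries, 11 of 102 contigs (10.8%) had a seasonal course that differed between sites, against 34.9% of all contigs, and 9 of the 11 were of the TIR class. With the tree as a replicate block 29 passed, the 11 among them (46.8% of all contigs).

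The 3 with the smallest p were GAEK01036577.1 (CC), isotig02858 (TIR) and isotig86067 (TIR). GAEK01036577.1 was at 0.232, 0.788 and 2.46 CPM (lowest, median, highest of 10 libraries) at Wiesloch in July and at 1.17, 2.62 and 5.44 CPM at Schluchsee. In September the order was the other way, with medians of 2.90 CPM at Wiesloch and 1.21 CPM at Schluchsee, and in May the medians were 1.98 CPM at both (adjusted p = 0.001). isotig02858 was higher at Wiesloch in July (median 39.8 CPM against 25.8 CPM) and lower there in September (19.2 against 29.1 CPM; adjusted p = 0.0012). isotig86067 had medians of 1.31, 1.61, 1.38 and 0.795 CPM at Wiesloch from May to September and 1.61, 1.04, 0.895 and 0.935 CPM at Schluchsee (adjusted p = 0.0054). In all 3 the library ranges of the sites overlap in every month.

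Whether the seasonal course differed between provenances was tested likewise. It did for 0 of 102 NBS-LRR contigs in edgeR and in DESeq2, with 3 under 0.05 unadjusted in edgeR, where 0.00338% of all contigs passed.

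Few NBS-LRR contigs changed past the threshold before July, and more fell from July to September. From May to June 5 of 102 contigs changed (4.90%, against 19% of all contigs), 1 up and 4 down, with a median log2 change of -0.03 over the 102. From June to July 1 changed (0.980%, against 13%), with a median of -0.08. From July to September 28 changed (27.5%, against 32.4%), 1 up and 27 down, and 26.5% fell where 17.1% of all contigs fell. The median change over the 102 contigs was -0.53, with 84 falling values and 18 rising ones, while the median of all other contigs was -0.02 with 52.3% of values below 0. With the tree as a replicate block the counts were 9 (31.8% of all contigs), 8 (21.8%) and 42 (41.3%), and of the 42 contigs 37 fell and 24 were among the 28. With clock time as a covariate, over the 62 libraries with a single recorded time, the counts were 1, 0 and 21, against 8.84%, 5.17% and 28.4% of all contigs in the same fits.

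**Figure D4:**
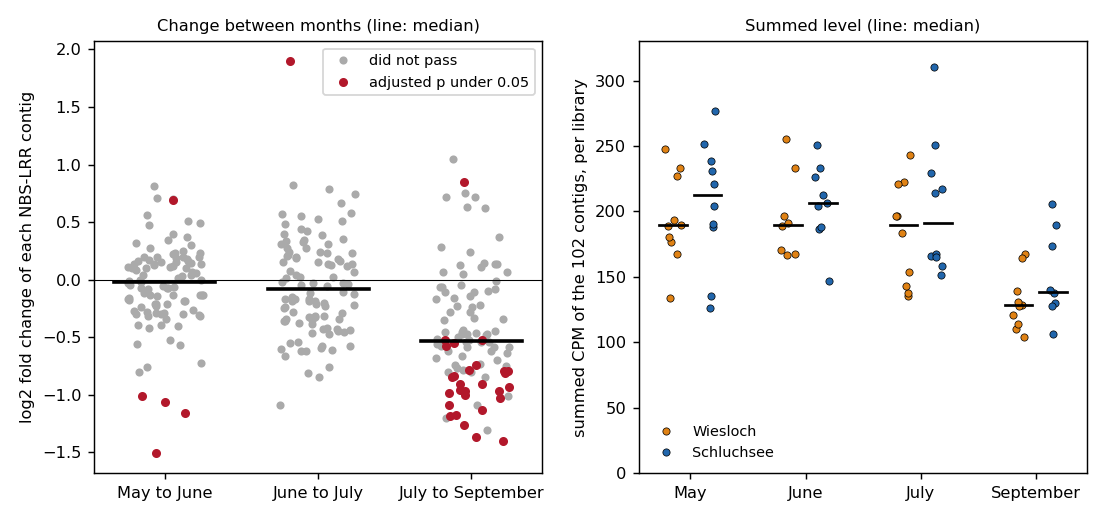
Log2 fold change of each NBS-LRR contig between successive months (left; points are contigs, red past adjusted p 0.05, lines are medians) and summed CPM of the 102 contigs in each of the 75 libraries by month and site (right; lines are medians). The medians on the left are -0.03, -0.08 and -0.53, and on the right most September libraries lie below those of the other months.

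The summed level of the 102 contigs shows the same step. Its lowest, median and highest values were 126, 192 and 277 CPM in the 20 May libraries, 147, 196 and 256 CPM in the 17 of June, 135, 190 and 310 CPM in the 20 of July and 104, 131 and 206 CPM in the 18 of September. The September range overlaps that of each other month, but its median lies below the lowest value of June and July. Of the 15 trees sampled in both July and September, 14 had a lower sum in September, by 26.2% as the median, and 14 also without isotig02858. From May to June the sum was lower in 9 of 16 trees and from June to July in 8 of 13. The median total count was 35.0 M in July and 33.6 M in September.

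The summed level of each class was lower in September. TIR contigs summed to 146 ± 40.2 CPM in July (SD, n = 20 libraries) and 107 ± 26.3 CPM in September (n = 18), and 17 of 62 fell past the threshold. BED finger contigs went from 29.5 ± 12.2 to 21.8 ± 6.31 CPM, with 3 of 23 falling and 1 rising. CC contigs went from 10.7 ± 3.76 to 6.85 ± 2.19 CPM, with 4 of 12 falling, and the unspecified ones from 6.54 ± 2.55 to 3.83 ± 1.65 CPM, with 3 of 5 falling. As shares, 27.4% of TIR, 13.0% of BED finger, 33.3% of CC and 60% of unspecified contigs fell, against 17.1% of all contigs. The median change was -0.52 for TIR, -0.48 for BED finger, -0.77 for CC and -0.80 for unspecified contigs. Kindred groups moved the same way. Over all levels the median was -0.34 for other disease resistance contigs (56 of 231 falling, 24.2%, and 10 rising). For receptor kinase contigs it was -0.16 (227 of 1379 falling, 16.5%, and 94 rising). By level the order varied between other disease resistance and NBS-LRR contigs. Their medians were -0.34 and -0.53 at 0.3 to 1 CPM and -0.42 and -0.58 at 1 to 3 CPM. At 3 to 10 CPM they were -0.59 and -0.48, and under 0.3 CPM, with 4 and 8 contigs, -0.70 and -0.29. The difference between these groups was not tested. Of the markers of needle cells, FAMA of guard cells fell over the same step from 13.7 ± 4.03 to 8.76 ± 2.98 CPM (log2 -0.70, SE 0.17, adjusted p = 0.001), and the other 8 measured did not pass, with log2 changes of -0.58 to 0.21. Its part in the NBS-LRR change was not tested.

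isotig74707, a CC contig, had the largest called fall, from 0.0402, 0.266 and 2.01 CPM (lowest, median, highest library) in July to 0.0268, 0.146 and 0.584 CPM in September (log2 -1.40, SE 0.45, adjusted p = 0.013). It was lower in 13 of 15 trees sampled in both months. GAEK01012402.1, of the TIR class, had medians of 0.162 and 0.0766 CPM in those months, near the low values (log2 -1.37, SE 0.55, adjusted p = 0.049). Its call was lost without any of 21 trees, with the highest adjusted p of 0.28 without Salmon Arm tree 12 at Schluchsee. The call was kept without any of the other 4, Salmon Arm trees 13 and 14 at Schluchsee and 12 and 15 at Wiesloch. With the tree as a replicate block its log2 change was -0.75 (adjusted p = 0.072), and the call was also lost with clock time as a covariate, without the 3 libraries with a low value of 4, with RLE size factors and with no filter on low counts (adjusted p of 0.050 to 0.156). GAEK01011462.1 fell from a median of 1.15 to 0.441 CPM (log2 -1.26, SE 0.44, adjusted p = 0.022) and was lower in 14 of 15 trees. Its call was lost without Cameron Lake tree 15 at Schluchsee (adjusted p = 0.062) or tree 16 at Wiesloch (adjusted p = 0.058), with clock time as a covariate (adjusted p = 0.235) and with the lowest values set to 0 (adjusted p = 0.051). The highest contig, isotig02858, fell from a median of 31.2 to 22.1 CPM (log2 -0.58, SE 0.16, adjusted p = 0.0025), in 11 of 15 trees. By site, as given above, its median fell at Wiesloch and rose at Schluchsee. Among the contigs that fell, the seasonal course also differed between sites for isotig86067, isotig29835, isotig54953, isotig35970, isotig30068, isotig05116 and isotig14511. Their falls are averages over the sites.

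Only GAEK01003046.1, a BED finger contig, rose past the threshold from July to September. Its lowest, median and highest levels were 0.200, 0.687 and 1.65 CPM in July and 0.599, 1.5 and 2.39 CPM in September, and it was higher in 13 of 15 trees (log2 0.85, SE 0.22, adjusted p = 0.0018).

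From May to June 3 BED finger contigs (GAEK01003551.1, GAEK01003552.1 and GAEK01003553.1) and the CC contig GAEK01025777.1 fell. These share much of their tree-to-tree pattern, as given above for 3 of them. GAEK01025777.1 went from 0.0822, 3.46 and 6.68 CPM in May to 0.0835, 1.09 and 2.98 CPM in June (log2 -1.51, SE 0.37, adjusted p = 0.0021). GAEK01003551.1 went from a median of 2.18 to 0.742 CPM (log2 -1.16, SE 0.28, adjusted p = 0.0014) and GAEK01003553.1 from 2.53 to 1.13 CPM (log2 -1.06, SE 0.32, adjusted p = 0.012). Each of these 3 was lower in June in 15 of 16 trees sampled in both months. isotig69831 rose, from a median of 0.732 to 1.18 CPM (log2 0.69, SE 0.21, adjusted p = 0.012), in 16 of 16 trees. With clock time as a covariate, adjusted p was 0.069 for GAEK01025777.1, 0.18 for GAEK01003553.1 and 0.135 for isotig69831. Of the 9 markers of needle cells measured, CESA4 of xylem rose over this step (log2 2.27, adjusted p = 1.3e-05) and the other 8 did not pass, with log2 changes of 0.25 for CESA7 and 0.06 for CESA8, the other xylem markers. From June to July CESA4 fell (log2 -3.44, adjusted p = 1.7e-08), while CESA7 (0.17) and CESA8 (0.03) did not pass. The mesophyll markers LHCB4.2 (log2 -0.58, adjusted p = 5.6e-06), RCA (log2 -0.42, adjusted p = 0.00043) and RBCS1A (log2 -0.44, adjusted p = 0.0014) also fell from June to July. The part of these markers in the NBS-LRR changes was not tested.

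From June to July GAEK01004583.1, a TIR contig near-absent in 7 trees, passed with a log2 change of 1.90 (SE 0.67, adjusted p = 0.048). Its lowest, median and highest levels were 0.0278, 0.103 and 3.24 CPM in June and 0.0269, 0.233 and 4.68 CPM in July, which overlap almost wholly, and in 9 of 13 trees sampled in both months it was lower in July. Without Salmon Arm tree 15 at Wiesloch adjusted p was 0.35 and without Salmon Arm tree 15 at Schluchsee 0.28, the call was lost without any of 17 trees in all. It was kept without any of the other 8, which were Cameron Lake trees 10, 12 and 16 at Schluchsee and 13 at Wiesloch and Salmon Arm trees 14 at Schluchsee and 11, 14 and 16 at Wiesloch, and with clock time as a covariate adjusted p was 0.31.

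**Figure D5:**
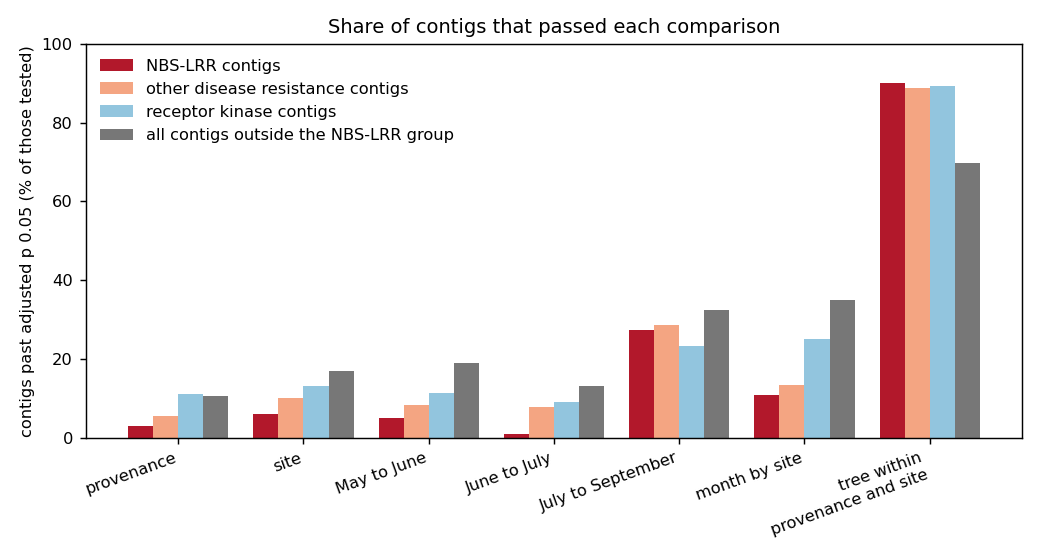
Share of tested contigs past adjusted p 0.05 in each comparison for NBS-LRR contigs, other disease resistance contigs, receptor kinase contigs and all contigs outside the NBS-LRR group. The NBS-LRR share is the lowest of the 4 for provenance, site, both early steps of the season and the month by site comparison, and the highest for the tree comparison.

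Genes that act with NLRs in Arabidopsis were taken as a list of 31 loci, of which 24 had a contig. Where several contigs matched a locus, the most abundant was taken, so the values are of that contig and not of the whole gene. None of these 24 contigs is an NBS-LRR contig by its description, though the list includes helper receptors. Their median SD between trees was 0.38, as for all other contigs. Between provenances 4 of 24 passed, 3 higher in Cameron Lake and 1 lower, where 10.6% of all contigs passed. The list median was 0.09 on the log2 scale. For ADR1-L1, a helper receptor, 30 contigs matched. Its locus, AT4G33300, also stood beside 2 NBS-LRR contigs, and 0 of these passed for provenance. The ADR1-L1 contig taken was at 232 ± 67.2 CPM in Salmon Arm (SD, n = 13 trees) and 349 ± 71.7 CPM in Cameron Lake (n = 12, log2 0.56, SE 0.15, adjusted p = 0.025). RBOHD, the oxidase of the defence burst, was also higher in Cameron Lake (log2 0.50, SE 0.16, adjusted p = 0.044). The co-chaperones SGT1A and SGT1B differed in opposite directions, SGT1A at 44.7 ± 16.8 and 27.3 ± 12.2 CPM (log2 -0.76, SE 0.24, adjusted p = 0.044) and SGT1B at 22.6 ± 7.05 and 33.5 ± 10.5 CPM (log2 0.61, SE 0.20, adjusted p = 0.048). Between sites 8 of 24 passed, 5 higher and 3 lower at Schluchsee, where 17% of all contigs passed.

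From May to June 8 of the 24 passed, 6 up and 2 down, where 19% of all contigs passed. Past HSP90.1, a heat-induced chaperone (log2 2.57, SE 0.23, adjusted p = 2.7e-13), the largest rise was that of RBOHD, from 23.7 ± 7.15 CPM (SD, n = 20) to 46.2 ± 17.3 CPM (n = 17; log2 0.94, SE 0.16, adjusted p = 1.1e-05). From June to July 2 of the 24 passed, where 13% of all contigs passed. These were BON1 (log2 -0.23, SE 0.05, adjusted p = 0.0016) and MPK6 (log2 -0.24, SE 0.07, adjusted p = 0.012), which fell. From July to September 8 of the 24 fell and 2 rose, with a list median of -0.07. Of all contigs 32.4% passed over this step and 17.1% fell. EDS1, the signalling partner of TIR receptors, had 4 contigs. The most abundant fell from 8.34 ± 8.14 CPM (n = 20) to 2.68 ± 2.26 CPM (n = 18, log2 -1.51, SE 0.37, adjusted p = 0.00086). Its partners PAD4 (log2 0.23, adjusted p = 0.61) and SAG101 (log2 0.46, adjusted p = 0.51) did not pass. Nor did the helper receptors ADR1 (log2 0.24), ADR1-L1 (-0.05), ADR1-L2 (-0.33), NRG1.1 (0.11) and NRG1.2 (-0.175). SGT1A fell from 46.0 ± 26.1 to 25.3 ± 12.4 CPM (log2 -0.85, SE 0.20, adjusted p = 0.00046), and HSP90.1 by 3.63 on the log2 scale (SE 0.25, adjusted p = 4.6e-19). The seasonal course differed between sites for 12 of the 24, where 34.9% of all contigs passed. HSP90.1, RBOHD and SGT1A were among them, so their changes are averages over the sites.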

How the data were processed

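Needle RNA of 25 trees was sequenced in 75 libraries. The authors deposited whole-number read counts per contig, with a description, an Arabidopsis locus and GO terms, in 1 table. The submitters' processing notes name CASAVA 1.7, Bowtie2 2.1, HTSeq and TAIR10, and how the low values arose is not given in the sources used here. Unescaped tabs make 29654 lines longer than the 80 header cells (up to 145), so the 75 deposited counts were read from the right end of each line, and the description as the cell before them.

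Counts were scaled by TMM and tested with edgeR 4.0.16 (limma 3.58.1, R 4.3.3) by quasi-likelihood, over all contigs. Provenance and site used counts summed per tree with the share of each month as covariates, and months used single libraries. The SE is the size of the log2 change divided by the square root of F. For designs with many columns, the dispersion trend was estimated on a subset of contigs spread over abundance and interpolated. The fits were also run on simulated counts, whose set spread between trees was smaller than that of the median NBS-LRR contig. That run does not cover contigs of such spread. Alternatives were DESeq2 1.42.0, other scaling and filters, lowest values at 0, clock time, single months, leaving out each tree, and the tree as a replicate block. The same tree number within a provenance and site was taken as the same individual. Deviations from group means, between libraries of 1 tree, correlated at a median of 0.653 (0.033 to 0.857, 89 pairs). Those of different trees correlated at a median of -0.117 (-0.472 to 0.439, 437 pairs). The ranges overlap, so the identity of every single library was not settled by this.

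Named contigs were those that passed with the largest changes per comparison (up to 10 per direction for provenance and 3 otherwise), the 3 smallest p for month by site, and the 6 highest and 4 lowest means. The members, lists and tests were chosen with earlier results of these data known. Contigs that fall outside this rule are named only as members of groups with like levels or to complete a count, after their values were seen.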

Additional observations from a re-analysis of the deposited data

Results flagged for a closer look

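In 18 of 124 groups of 4 to 10 values, the highest or lowest stood apart from the rest of its group. The nominal rate of about 1 in 20 groups is no yardstick for this count. Contigs of like levels, such as GAEK01011461.1 and GAEK01011462.1, count more than once, and some levels lie near the low values. Levels per tree stood apart for the contigs behind several calls. For GAEK01004583.1 these were tree 15 of Cameron Lake at Schluchsee (3.70 CPM), of Salmon Arm at Schluchsee (2.69 CPM) and of Salmon Arm at Wiesloch (1.37 CPM). Salmon Arm tree 16 at Schluchsee had 3.06 CPM of GAEK01011461.1 and 2.81 CPM of GAEK01011462.1. For GAEK01021819.1 they were Cameron Lake tree 11 at Schluchsee (10.7 CPM) and Salmon Arm tree 11 at Wiesloch (3.67 CPM). Cameron Lake tree 14 at Schluchsee had 6.72 CPM of GAEK01003553.1, and Salmon Arm tree 12 there had 0.584 CPM of GAEK01012402.1. At Wiesloch, Salmon Arm tree 9 had 5.38 CPM of GAEK01024690.1 and tree 14 had 2.43 CPM of isotig50845. Cameron Lake tree 12 at Schluchsee had 2.72 CPM of isotig86067.

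Among the lowest contigs, isotig21196 stood apart in Salmon Arm tree 12 at Wiesloch (0.440 CPM), isotig53189 in Cameron Lake tree 15 at Schluchsee (1.18 CPM) and isotig89884 in Cameron Lake tree 14 at Schluchsee (1.57 CPM). isotig94548 did so in Cameron Lake tree 12 at Wiesloch (0.618 CPM) and Salmon Arm tree 14 at Schluchsee (1.94 CPM). The summed level of the 102 contigs in Cameron Lake tree 16 at Wiesloch in June, at 196 CPM, also lay apart from its group.

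The seasonal course differed between sites for 11 contigs, by the F test of edgeR with Benjamini-Hochberg adjustment. The adjusted p was 0.00104 for GAEK01036577.1, 0.0012 for isotig02858 and 0.00537 for isotig86067. It was 0.00831 for isotig29835, 0.0125 for isotig54953, 0.0153 for isotig35970 and 0.0168 for isotig30068. For isotig05116 it was 0.0175, for isotig69332 0.0307, for isotig69831 0.031 and for isotig14511 0.0381. The call for isotig69831 was lost without any of 5 trees (adjusted p up to 0.069), namely Cameron Lake tree 12 and Salmon Arm tree 9 at Wiesloch and Salmon Arm trees 9, 14 and 16 at Schluchsee.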

How the results depend on the processing

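Counts of NBS-LRR contigs past the threshold depended on the tool and the model, and no named contig changed direction under any alternative run. DESeq2 called 7 contigs for provenance (17.1% of all contigs), 6 at Wiesloch (5.51%), 6 at Schluchsee (11.7%), 1 for provenance by site (0.378%) and 11 for site (22.1%). With the tree as a replicate block the counts were 16 for provenance and 11 for site (limma voom), 9 for May to June, 8 for June to July and 29 for month by site (fixed effects). With clock time as a covariate they were 1 for May to June, 0 for June to July and 7 for month by site. With the lowest values set to 0 they were 0 at Schluchsee and 6 for month by site, without month shares 3 at Schluchsee, and without the 3 libraries with a low value of 4 they were 2 for June to July. For July to September 28 passed in the main fit, 27 of them falling. With the lowest values set to 0 it was 22, 21 of them falling (30.9% of all contigs passed). Without the 3 libraries it was 21, 20 of them falling (28.4%). For single months, site had 0 in May, 0 in June and 22 in July.

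Leaving out each tree in turn gave 1 to 7 contigs for provenance, 0 to 4 at Wiesloch, 0 at Schluchsee, 4 to 10 for site, 5 for May to June, 0 to 2 for June to July, 21 to 29 for July to September and 8 to 15 for month by site, with 0 for provenance by site and for month by provenance. Over all contigs, the counts ran from 3915 to 9001 for provenance, 1 to 948 at Wiesloch, 321 to 1184 at Schluchsee and 8022 to 10283 for site. The provenance count was 7 without Salmon Arm tree 9 at Wiesloch (15.3% of all contigs), 5 without Salmon Arm tree 16 at Wiesloch or Cameron Lake trees 15 or 16 at Schluchsee, and 1 without Salmon Arm trees 13 or 14 or Cameron Lake tree 13 at Wiesloch. The count at Wiesloch was 4 without Salmon Arm tree 9 (1.63%), that for site was 10 without Salmon Arm tree 13 at Schluchsee, and that for June to July was 2 without Cameron Lake tree 13 or Salmon Arm tree 11 at Wiesloch. Contigs near-absent in some trees were 31 to 63 under other limits, chosen after the data were seen, and the tree comparison called 90 to 92. Low counts limit precision: 46 of the 102 contigs were under 1 CPM.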
